A study of Mus musculus with 2 samples.

Results

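The genes described here are 36 markers of T, NK and B lymphocytes, taken from a list of symbols (Igj, which is also called Jchain, included) by a rule that uses no measured value, though the list was drawn up with earlier results of these data known. All 36 were on the array, represented by 46 probes, among 22803 named genes in all. They fall into 6 roles: the T cell receptor complex with its coreceptors, genes of T cell adhesion, costimulation, signalling and regulation, cytotoxic granule genes, NK cell receptors and transcription factors, B cell genes, and plasma cell genes. The samples were mouse livers, hybridised to 2 Agilent arrays that each compare 2 dyes. On the wild-type array the red dye Cy5 labelled RNA of wild-type C57BL/6 liver from mice that had drunk water with thioacetamide for 6 months, and the green dye Cy3 labelled RNA of untreated wild-type C57BL/6 liver. On the other array Cy5 labelled liver RNA of AID transgenic mice of the same background and treatment, and Cy3 that of untreated AID transgenic mice. The treatment ratio is therefore Cy5 over Cy3, there was no dye swap, and any dye effect cannot be told apart from the treatment within an array. The promoter of the transgene, the age and sex of the animals, and whether a channel held 1 animal or a pool are not stated in the sources used here. The design asks how liver expression after thioacetamide compares between wild-type and AID transgenic mice.

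Lymphocytes are a minor part of the liver, in which hepatocytes supply most of the RNA, and livers also hold many NK cells and resident macrophages (Kupffer cells). T cells read antigen through a receptor coupled to the CD3 and CD247 (zeta) chains, whose tails carry immunoreceptor tyrosine-based activation motifs. The kinase Lck phosphorylates these motifs and the kinase Zap70 then docks on them. B cells use an antibody as receptor, coupled to Cd79a and Cd79b, and may become plasma cells that secrete antibody. Thioacetamide is a toxin that liver enzymes activate and that causes liver injury and fibrosis in rodents.

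The array reads each gene through probes of 60 bases, printed here in the sense of the transcript for the genes on which the text below turns, with positions on the mouse build mm9 as the files give them. The Cd247 probe (chr1:167786567-167787585, plus strand) and the Cd3d probe (chr9:44794171-44794402, plus strand) span more of the genome than their own length, and each lies over signalling motifs. Capitals mark a tyrosine codon, 2 codons of any kind and a leucine or isoleucine codon in an open reading frame, found 2 times in each of these probes. The Zap70 probe (chr1:36839315-36839374, plus strand) is shown because the gene had the lowest treatment ratio of the markers, and the Cd4 probe (chr6:124817706-124817765, minus strand) because the other Cd4 probe gave another value. No capitals are set in those.
Cd247: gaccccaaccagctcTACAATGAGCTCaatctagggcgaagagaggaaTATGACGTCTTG
Cd3d: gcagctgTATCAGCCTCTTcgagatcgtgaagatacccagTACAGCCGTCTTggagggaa
Zap70: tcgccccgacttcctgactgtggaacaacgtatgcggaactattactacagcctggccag
Cd4: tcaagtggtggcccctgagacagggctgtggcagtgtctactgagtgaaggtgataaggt

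With 1 array per genotype there is no replicate, no test was possible, and precision is limited by having 2 arrays. Levels are log2 intensities and ratios are log2 values after background correction and normalization. A ± gives the error that the scanner software attached to a spot's ratio, in log2 units, which covers the spot and not animals. It belongs to the software's own ratio, not to the normalized ratio printed beside it. A dim marker can thus lie within this error here and beyond it with the software's processed signals. For a gene with several probes the errors were combined as if the probes were independent, so its ± can be smaller than that of any 1 probe. A gene counts as measured when 1 or more of the channels compared showed a probe of it well above background, and as higher or lower at 2-fold or more, that is, at a log2 value of 1 or over in size. In whole liver RNA, fewer cells of a type and less RNA per cell cannot be told apart. Across the arrays 53.9% to 68.8% of 43020 spots were well above background, no spot was saturated, and all 10 hepatocyte markers checked were well above background in all 4 channels.

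Sex-linked transcripts separated the treated wild-type liver from the other 3 channels. The X-inactivation RNA Xist was well above background in the treated wild-type liver alone, at least 6.18-fold higher than in the untreated one. The Y-linked genes Ddx3y and Eif2s3y were not well above background there and were at least 17.6-fold and 32.1-fold lower. On the AID transgenic array Ddx3y had a ratio of -0.11 and Eif2s3y one of -0.05. The wild-type treatment ratio, its difference from the AID transgenic ratio and the comparison of the treated livers therefore carry this difference, and its part in the values below was not tested.

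More lymphocyte markers were detectable in the treated than in the untreated channels. In the untreated wild-type liver 19 of 36 were well above background (52.8%, against 61.7% of all named genes), and in the treated one 29 (80.6%, against 72.9%). In the AID transgenic mice it was 17 (47.2%, against 60.0%) before and 30 (83.3%, against 73.1%) after thioacetamide. Of the 17 markers not detected in the untreated wild-type liver, 10 (58.8%) were detected in the treated one, where 29.6% of all genes in that position were. Of the 19 not detected in the untreated AID transgenic liver, 13 (68.4%) were detected in the treated one, where 32.9% of all genes were. None was lost in the other direction, as were 0.334% and 0.102% of all genes detected in the untreated channels. The treated channel was always Cy5, in which the lowest level well above background was 5.85 on either array, against 6.27 and 6.31 in Cy3, so the gain at the detection limit and the dye cannot be told apart.

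The markers seen in all 4 channels were 17: Cd3d, Cd3e, Cd247, Cd4, Cd2, Cd5, Cd28, Lck, Zap70, Gzma, Gzmk, Prf1, Nkg7, Cd79b, Cr2, Igj and Sdc1. In both treated livers and neither untreated one were 9: the CD8 coreceptor chain Cd8b1, the regulatory T cell factor Foxp3, the granzyme Gzmb, the NK receptor Klrd1, the factors Eomes and Tbx21, and the B-lineage genes Ms4a1, Cd79a and Pou2af1. The CD3 chain Cd3g and the low-affinity IgE receptor Fcer2a were missed in the untreated AID transgenic liver alone. Cd8a and the B cell kinase Blk were seen in the treated AID transgenic liver alone, and the NK receptor Klrb1c in the treated wild-type liver alone. Not detected in any channel were 5: the inhibitory receptor Ctla4, the NK receptors Klrk1 and Ncr1, the B cell factor Pax5 and the plasma cell receptor Tnfrsf17. Some T cell and B cell markers were thus detected in all 4 channels, while the 6 NK receptors and factors were detected in treated channels at most. Pax5 and Ncr1, markers of B and NK cells, were not detected, which does not show that they were absent.

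**Figure D1:**
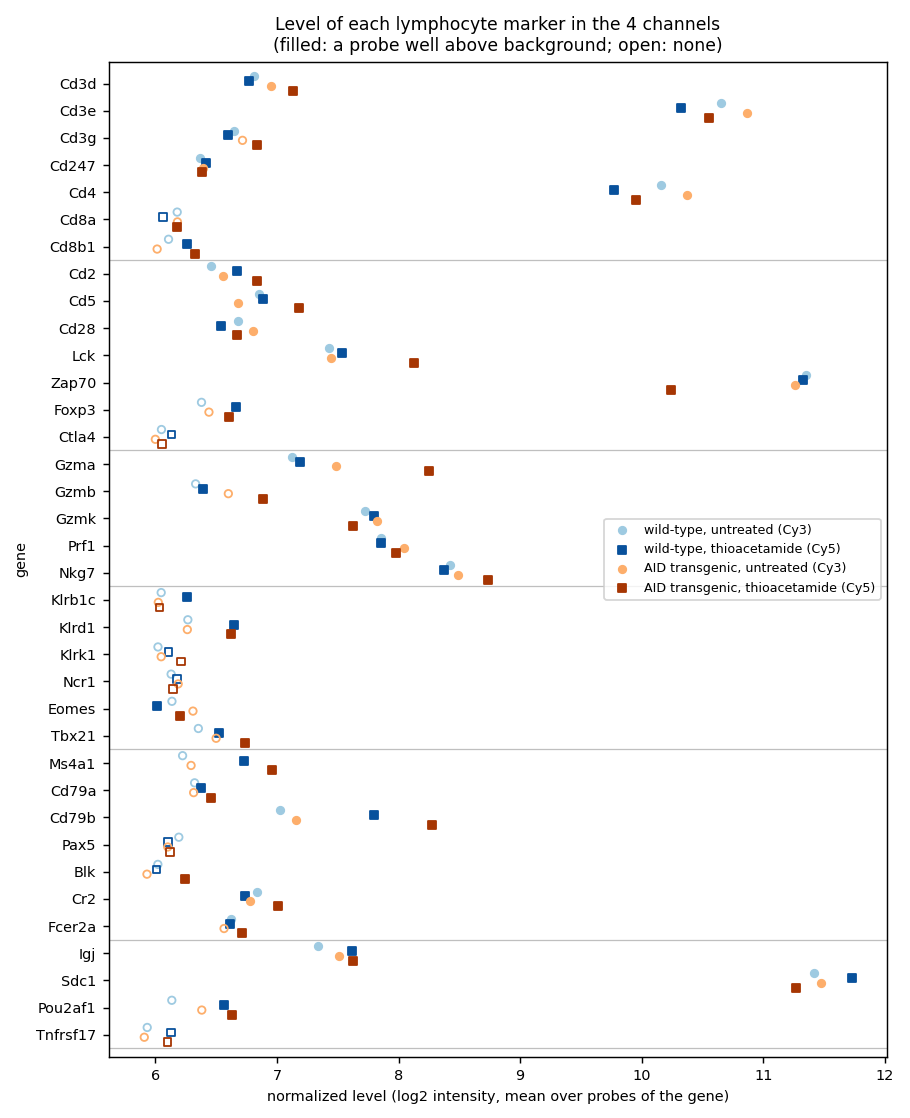
Normalized level (log2 intensity, x axis) of each of the 36 lymphocyte markers (y axis, grouped by role) in the 4 channels, 1 point per channel, filled where a probe was well above background. Cd79b, Gzma and Lck stand to the right in the treated AID transgenic liver and Zap70 to the left, while 5 genes have open symbols only.

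In the wild-type mice no lymphocyte marker reached 2-fold after thioacetamide. Of 29 measured, 0 were higher and 0 lower, where 1.86% and 1.64% of all measured genes were. The median log2 ratio was 0.06, against 0.03 for all genes, and 19 of the 29 were above 0, as were 54.7% of all genes. Of these 29, 10 were measured through the treated channel alone, and the 19 detected in both channels had a median of 0.00 with 10 above 0, against 0.01 and 51.5% for all genes so detected. At 1.5-fold 1 marker, Cd79b, was higher (background 6.01%) and none was lower (4.89%). When arrays were centred on the median in place of loess, 2 markers (Cd79b and the plasma cell and epithelial proteoglycan Sdc1) were 2-fold higher and 0 lower, with 10.4% and 0.612% of all genes, and the median of all genes moved from 0.03 to 0.35, above the markers' 0.15.

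In the AID transgenic mice 1 of 30 measured markers, Cd79b, was at least 2-fold higher after thioacetamide (1.22% of all genes) and 1, Zap70, at least 2-fold lower (0.947%). The median was 0.17, against 0.03 for all genes, with 20 markers above 0, as were 54.6% of all genes. The 17 detected in both channels had a median of 0.12 with 9 above 0, against 0.01 and 51.7% for all genes so detected. At 1.5-fold 4 were higher, which were Cd79b, Gzma, Lck and Ms4a1 (background 4.76%), and Zap70 was lower (3.4%). Setting the 10 wild-type and 13 AID transgenic markers seen in 1 channel to the bound their detection limit allows gave medians of 0.04 and 0.14. With median centring the median of all genes on the AID transgenic array moved from 0.03 to 0.34, above the markers' 0.21, 8.14% of genes were 2-fold higher and 0.317% lower, and 3 markers (Cd79b, Gzma and Lck) were higher with 0 lower.

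**Figure D2:**
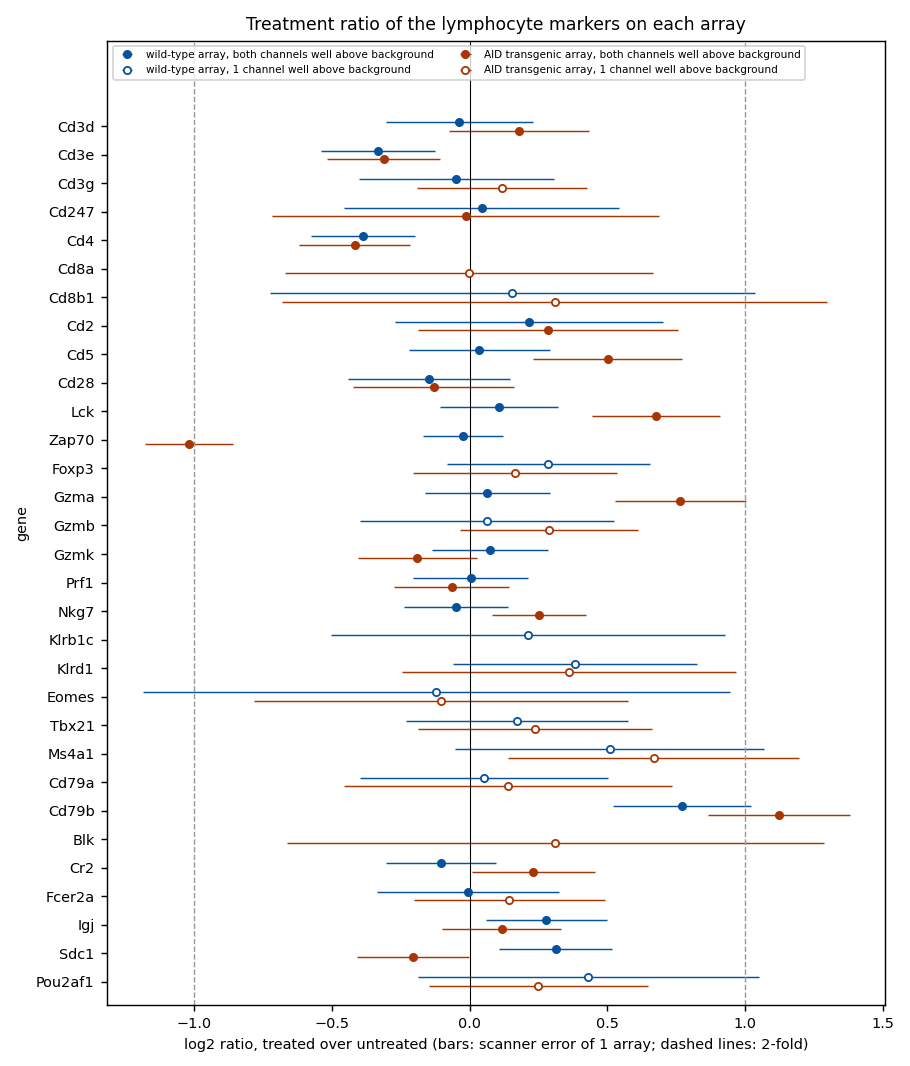
Log2 ratio of treated over untreated liver (x axis) for the 31 markers measured on at least 1 array (y axis), in blue for wild-type and brown for AID transgenic mice. Bars give the scanner error of 1 array, open circles markers seen in 1 of the 2 channels, and dashed lines 2-fold. Most bars cross 0 on either array, and Zap70 lies at -0.02 in wild-type and at -1.02 in AID transgenic mice.

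In the main processing no gene of the T cell receptor complex and coreceptors reached 2-fold or 1.5-fold on either array. Of the 2 probes of Cd4, 1 passed 1.5-fold. As means over probes, the median ratio of these genes was -0.04 in wild-type (6 measured) and -0.00 in AID transgenic mice (7 measured). Cd3d, a CD3 chain, had levels of 6.81 untreated and 6.77 treated in wild-type and of 6.95 and 7.13 in AID transgenic mice, with ratios of -0.04 ± 0.27 and 0.18 ± 0.25. Cd3e, the chain used to stain T cells, went from 10.65 to 10.32 and from 10.87 to 10.55, ratios of -0.33 ± 0.21 and -0.31 ± 0.21. Its levels lay far above those of Cd3d, and which cells gave its signal was not tested. Its treated channel was the lower one on either array, but with median centring the ratios were 0.34 and 0.36, about the shift of all genes. The Cd247 ratios were 0.04 ± 0.50 and -0.02 ± 0.70. They average the probe printed above, which was well above background in the treated wild-type liver alone (0.21 and 0.04), and a probe at chr1:167800324-167800383 detected in all 4 channels (-0.12 and -0.07). Cd3g had -0.05 ± 0.36 in wild-type and 0.12 ± 0.31 in AID transgenic mice, whose untreated value was not above background. Cd8b1, seen in the treated channels alone, had 0.15 ± 0.88 and 0.31 ± 0.99, and both directions turned with median centring (-0.19 and -0.04). With processed signals it was past 2-fold on both arrays (1.74 and 1.29). With an offset of 0 it had 0.52 in wild-type and 1.16 in AID transgenic mice.

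The probes of Cd4, the coreceptor of helper T cells, did not give the same answer. The probe printed above, with 10 spots kept in wild-type and 7 in AID transgenic mice, was dim, with levels from 6.54 to 6.69. Its ratios were 0.14 ± 0.31 (SD 0.11 between spots) and 0.05 ± 0.34 (SD 0.06). The other Cd4 probe, at chr6:124814711-124814770 on the minus strand, was bright. It had levels of 13.78 untreated and 12.86 treated in wild-type and of 14.12 and 13.24 in AID transgenic mice. Its ratios were -0.92 ± 0.22 and -0.88 ± 0.22, past 1.5-fold on either array. Which cells gave this bright signal was not tested. The gene value of -0.39 and -0.42 is the mean of these and describes neither probe. The 2 probes of Cd8a, the coreceptor chain of cytotoxic T cells, had ratios of 0.01 and -0.25 in wild-type and of 0.22 and -0.22 in AID transgenic mice, with 1 channel alone above background.

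Among T cell signalling genes, Lck was higher and Zap70 lower in the treated AID transgenic liver, while neither differed in the wild-type mice beyond the error. Lck (probe at chr4:129225614-129225673, minus strand) had levels of 7.43 untreated and 7.53 treated in wild-type and of 7.45 and 8.12 in AID transgenic mice. The treated AID transgenic liver was high and the other 3 lay within 0.11 of each other. Its ratios were 0.11 ± 0.21 and 0.68 ± 0.23, a difference of 0.57 ± 0.32. Cd5, a scavenger receptor family protein that dampens receptor signals, had levels of 6.85 and 6.88 in wild-type and of 6.68 and 7.18 in AID transgenic mice, and ratios of 0.03 ± 0.26 and 0.50 ± 0.27.

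Zap70 had levels of 11.35 untreated and 11.33 treated in wild-type mice and of 11.26 and 10.24 in AID transgenic mice. The treated AID transgenic liver was thus low and the other 3 were alike. All these levels lay far above those of Lck, Cd5 and Cd3d, and which cells gave the Zap70 signal was not tested. The ratios were -0.02 ± 0.14 and -1.02 ± 0.16, and the difference of -0.996 ± 0.22 fell just short of 2-fold in size. Both probes showed this. The probe printed above had -0.13 in wild-type and -1.11 in AID transgenic mice, and a probe a little downstream (chr1:36839542-36839601, plus strand) had 0.08 and -0.94. With median centring the ratios were 0.67 and -0.35, so the AID transgenic value then lay under 2-fold, while the gap between the genotypes kept its size at more than 1. The adhesion receptor Cd2 had ratios of 0.22 ± 0.49 and 0.28 ± 0.47 as a mean of 2 probes. The probe detected in all 4 channels had 0.25 ± 0.26 and 0.40 ± 0.25. The probe detected in the treated channels alone had 0.18 ± 0.94 and 0.16 ± 0.91. With processed signals Cd2 had 1.08 and 1.14. The costimulatory receptor Cd28 had ratios of -0.15 ± 0.30 and -0.13 ± 0.29. Foxp3, seen in the treated channels alone, had ratios of 0.29 ± 0.37 and 0.16 ± 0.37, within the error. With processed signals they were 0.84 and 0.66, beyond it.

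The cytotoxic granule genes, used by NK cells and cytotoxic T cells to kill target cells, were measured on both arrays in all 5 cases. None reached 2-fold in a treatment ratio, and the median was 0.06 in wild-type and 0.25 in AID transgenic mice. Gzma (chr13:113884035-113884094, minus strand), a granzyme of NK cells, had levels of 7.13 untreated and 7.19 treated in wild-type and of 7.49 and 8.25 in AID transgenic mice. The treated AID transgenic liver was the highest, and the untreated one also lay above both wild-type livers. The ratios were 0.06 ± 0.23 and 0.77 ± 0.24, and the difference of 0.70 ± 0.33 was the highest of the 31 markers. Nkg7, a granule membrane protein, had -0.05 ± 0.19 and 0.25 ± 0.17 as a mean of 2 probes that differed. The bright probe had 0.03 ± 0.20 and 0.11 ± 0.20, and the dim probe -0.13 ± 0.32 and 0.40 ± 0.27. Gzmk had 0.07 ± 0.21 and -0.19 ± 0.22, and the pore-forming perforin gene Prf1 had 0.00 ± 0.21 and -0.07 ± 0.21. Gzma was thus not joined by Gzmk or Prf1. Gzmb was seen in the treated channels alone. It had 0.06 ± 0.46 in wild-type, where median centring turned the direction (-0.14), and 0.29 ± 0.32 in AID transgenic mice.

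The NK cell receptors and transcription factors were at the detection limit. None of the 6 was well above background in an untreated liver, 4 were in the treated wild-type liver and 3 in the treated AID transgenic one. Klrd1, which pairs with NKG2 receptors, had levels of 6.27 and 6.65 in wild-type and of 6.26 and 6.62 in AID transgenic mice. Its ratios were 0.38 ± 0.44 and 0.36 ± 0.61, within the error, but 1.71 and 2.72 with the software's processed signals, beyond it. Tbx21, the T-bet gene, had 0.17 ± 0.40 and 0.24 ± 0.43. Eomes allowed no fold on either array, nor did Klrb1c in wild-type mice.

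Among the B cell genes, Cd79b was higher in the treated liver of either genotype by more than its scanner error, while Ms4a1 was detected in the treated livers alone. Cd79b (chr11:106172780-106172839, minus strand), a signalling chain of the B cell receptor, had levels of 7.03 untreated and 7.80 treated in wild-type and of 7.15 and 8.28 in AID transgenic mice. Both treated livers lay above both untreated ones. The ratios were 0.77 ± 0.25 and 1.12 ± 0.26, which differed by 0.35 ± 0.36, less than the error. Ms4a1 (chr19:11325367-11325426, minus strand), the gene of CD20, had levels of 6.22 and 6.73 in wild-type and of 6.29 and 6.96 in AID transgenic mice, and its untreated values were not above background. Its ratios were 0.51 ± 0.56 and 0.67 ± 0.53, the former within its error, and its bounds were 1.37-fold and 1.57-fold. With processed signals the ratios were 3.14 and 3.41, both beyond the error. The offset of 50 that steadies dim spots also draws their ratios towards 0: without it the Ms4a1 ratios were 1.35 and 1.69 and those of Cd79b 1.13 and 1.59.

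The remaining B cell genes had smaller ratios in the main processing. Cd79a, the partner chain of Cd79b, was seen in the treated livers alone, with ratios of 0.05 ± 0.45 and 0.14 ± 0.60. With processed signals the wild-type ratio of Cd79a turned to -0.08, while its AID transgenic ratio was 1.55, past 2-fold. Median centring turned both directions (-0.16 and -0.05). Cr2, the complement receptor of B cells, had ratios of -0.10 ± 0.20 and 0.23 ± 0.22. Fcer2a had -0.01 ± 0.33 in wild-type and 0.14 ± 0.35 in AID transgenic mice, the latter through the treated channel alone. Blk allowed no fold. Of the 6 B cell genes measured on the AID transgenic array 4 were detected in the treated channel alone, so their direction is not read as a result.

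All 3 plasma cell genes measured had a ratio above 0 in wild-type mice, and 2 of 3 had in AID transgenic mice. Each ratio was lower in AID transgenic than in wild-type mice, by less than the error for Igj (-0.16 ± 0.31) and Pou2af1 (-0.18 ± 0.74). The difference was -0.52 ± 0.29 for Sdc1. Of 9 other plasma cell genes, 8 had the higher ratio in AID transgenic mice. Pou2af1 was measured through the treated channel alone. Igj, the chain that joins IgM and IgA units, had levels of 7.34 and 7.61 in wild-type and of 7.51 and 7.63 in AID transgenic mice, with ratios of 0.28 ± 0.22 and 0.12 ± 0.22. Sdc1 (chr12:8799383-8799442, plus strand), which hepatocytes and other epithelia also make, had levels of 11.42 and 11.73 in wild-type and of 11.47 and 11.27 in AID transgenic mice. Its treated channel was the higher one in wild-type (0.31 ± 0.21) and the lower one in AID transgenic mice (-0.21 ± 0.21), except with median centring, where both ratios were above 0 at 1.004 and 0.48. Pou2af1, a B-lineage coactivator, had 0.43 ± 0.62 in wild-type and 0.25 ± 0.40 in AID transgenic mice, within the error. With processed signals it had 2.73 and 0.86, beyond the error.

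Comparing the 2 treatment ratios gene by gene, 18 of the 28 markers measured on both arrays had the higher ratio in AID transgenic mice, as had 49.5% of all genes. Of the 17 markers detected in all 4 channels 10 had, with a median difference of 0.02, against -0.00 for all genes so detected. No marker's difference reached 2-fold in either direction, where 0.929% of all genes were higher and 1.05% lower. At 1.5-fold Gzma was higher (background 2.96%) and Zap70 lower (2.92%). The median difference was 0.07, against -0.00 for all genes. Of the 28, 5 differed by more than the scanner error towards AID transgenic mice, which were Gzma, Lck, Cd5, Cr2 and Nkg7 (10.8% of all genes did), and 2 the other way, Zap70 and Sdc1 (10.3%). The errors of Cr2, Nkg7 and Zap70 combine 2 probes each. For Nkg7 the bright probe had ratios of 0.03 and 0.11, and the dim probe -0.13 and 0.40.

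No marker reached 2-fold between the untreated livers of the 2 genotypes. Of 19 measured markers 0 were 2-fold higher in AID transgenic than in wild-type liver (0.308% of all genes) and 0 lower (0.294%), with a median of 0.09, and none reached 1.5-fold (0.993% higher and 0.972% lower). The values ran from -0.17 for Cd5 to 0.36 for Gzma, and 15 of 19 were above 0, as were 48.9% of all genes. Between the treated livers, Gzma at 1.06 was 2-fold higher in AID transgenic mice (0.732% of all genes) and Zap70 at -1.09 2-fold lower (0.761%) among 31 markers. The median there was 0.16, 24 of 31 were above 0 (48.7% of all genes), and at 1.5-fold Lck at 0.59 joined Gzma (background 2.49%) and Zap70 alone was lower (2.04%). These comparisons cross arrays and share channels with the treatment ratios above.

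Few further genes of the same lineages, from related lists, reached 2-fold. Of all measured genes, 1.86% were 2-fold higher and 1.64% lower in wild-type mice, and 1.22% and 0.947% in AID transgenic mice. Of other T cell genes, 23 were measured in wild-type and 27 in AID transgenic mice with 0 at 2-fold on either array and medians of 0.04 and 0.16. Ccr7, the receptor that guides T cells to lymphoid tissue, had ratios of 0.52 ± 0.27 and 0.87 ± 0.29. Of other NK and cytotoxic genes, 1 of 11 was higher in wild-type mice, the granzyme Gzmm at 1.24 ± 0.30, and 0 of 13 in AID transgenic mice, where it was at least 1.86-fold higher. Of other B cell genes, 2 of 18 were higher in wild-type mice, the receptor adaptor Blnk at 1.35 ± 0.25 and Vpreb3 at 1.34 ± 0.31. In AID transgenic mice 0 of 19 were, with Blnk at -0.14 ± 0.21, Vpreb3 at 0.44 ± 0.24 and the inhibitory receptor Cd72 at 0.91 ± 0.17. Of other plasma cell genes 1 of 7 was lower in wild-type mice, the endoplasmic reticulum gene Derl3 at -2.65 ± 0.35, and 0 of 9 in AID transgenic mice (-0.32 ± 0.21).

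Pan-leukocyte and macrophage genes had higher ratios in AID transgenic than in wild-type mice, while dendritic cell markers did not. Genes shared by most leukocytes had a median ratio of 0.11 in wild-type and 0.44 in AID transgenic mice. Of 18 such genes, 12 and 18 were above 0 (54.7% and 54.6% of all genes). In AID transgenic mice 1, Cd52 at 1.14 ± 0.23, was 2-fold higher (1.22% of all genes). Of 19 macrophage and Kupffer cell markers 0 were 2-fold higher in wild-type and 5 in AID transgenic mice, where 1.86% and 1.22% of all genes were. Their medians were 0.09 and 0.66, and 18, 19, 18 and 19 of them were well above background in the 4 channels. Their summed intensity was 23943 untreated and 28095 treated in wild-type, and 28815 and 57132 in AID transgenic mice. The medians of 8 dendritic cell markers were 0.18 on either array, and those of 7 neutrophil markers -0.21 and 0.01. The part of these cells in the values of the lymphocyte markers was not tested.

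**Figure D3:**
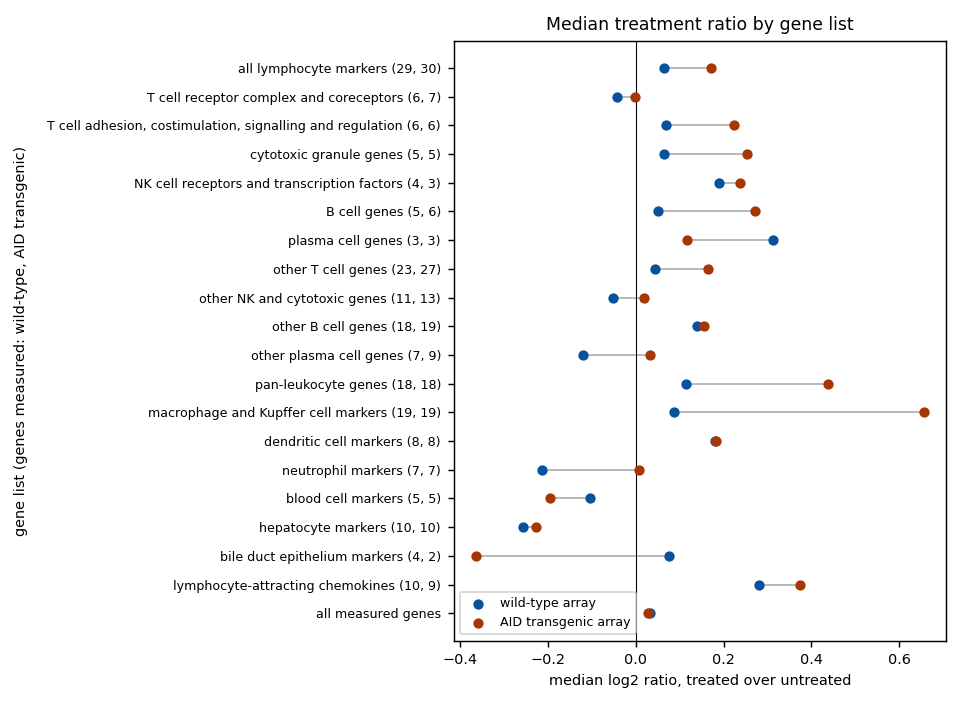
Median log2 ratio of treated over untreated liver (x axis) for all lymphocyte markers, their 6 roles, lists of related genes and other cell types, and all measured genes (y axis, with the number measured on each array), in blue for wild-type and brown for AID transgenic mice. The medians of the lymphocyte markers are 0.06 and 0.17, and those of the macrophage and Kupffer cell markers 0.09 and 0.66.

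Chemokines that attract lymphocytes included genes past 2-fold. The interferon-induced Cxcl10 had ratios of 2.31 ± 0.32 in wild-type and 2.70 ± 0.34 in AID transgenic mice. In the latter Ccl5, which T and NK cells also make, was at 1.70 ± 0.27 and Cxcl9 at 1.09 ± 0.17, against 0.41 ± 0.21 and 0.46 ± 0.15 in wild-type. Ccl21a, a ligand of Ccr7, was lower in AID transgenic mice at -2.15 ± 0.30. Its levels were 9.19 untreated and 8.56 treated in wild-type and 11.26 and 9.11 in AID transgenic mice, so the untreated AID transgenic liver stood apart. Cxcl13, which attracts B cells, was higher in AID transgenic than in wild-type liver both untreated (1.60) and treated (1.67).

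The choice of background correction changed how many markers passed 2-fold. With the scanner software's own processed signals, 7 wild-type and 10 AID transgenic markers were higher, where 9.46% and 9.09% of all genes were. With an offset of 0 it was 4 and 6, with backgrounds of 4.69% and 3.71%. The genes gained were mostly dim ones such as Ms4a1 and Klrd1, whereas Zap70 had an AID transgenic ratio of -1.08 under either setting.

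**Figure D4:**
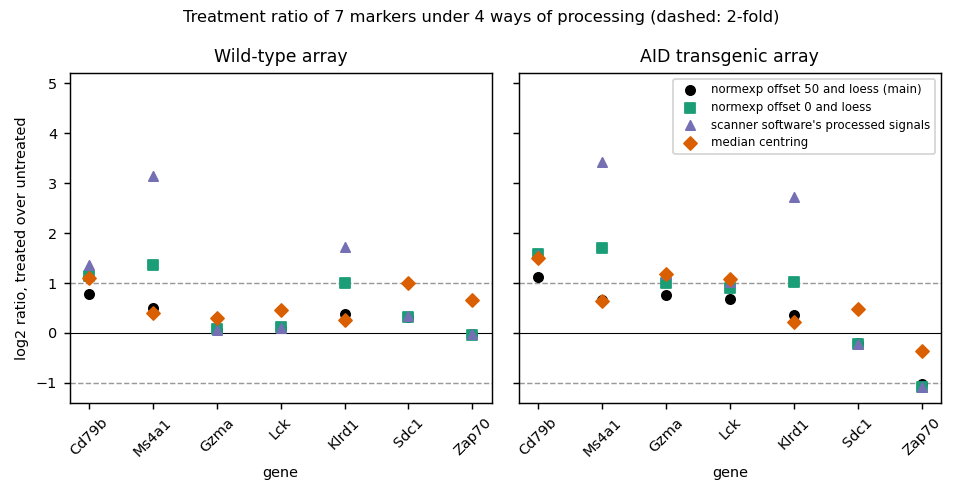
Log2 ratio of treated over untreated liver (y axis) of 7 lymphocyte markers (x axis) under 4 ways of processing, for the wild-type array (left) and the AID transgenic array (right), 1 point per setting, with dashed lines at 2-fold. Ms4a1 runs from 0.39 to 3.14 in wild-type mice, while Gzma and Lck move less.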

How the data were processed

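Mean signals and background medians of the scanner files are intensity values that the authors deposited as scanned, per the file headers. The deposited log10 ratio and its error, a score of the scanner software's error model, were used for the ± values, after conversion to log2. On the 42823 and 42813 spots kept, the series' value table held this log10 ratio exactly (tolerance 0), with medians of 0. The file headers name Feature Extraction 10.7.3.1, whereas its version is 10.5.1.1 in the submitters' processing notes.

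Background was corrected in limma 3.58.1 (R 4.3.3) with normexp (offset 50), and arrays were normalized by loess, with weight 0 for control spots and outliers. Aquantile gave levels and comparisons across arrays. Controls and 197 and 207 outlier spots were left out. Spots of a probe were averaged, and a probe was well above background when at least 50% of its spots were. A gene is the mean of its probes. The steps were tested on simulated data. Of 39429 probes, 26055 were named by accession (RefSeq, GRCm38.p6), 3195 by symbol, 930 by synonym, and 9249 not. Python 3.11.15, numpy 2.4.6, pandas 2.3.3 and matplotlib 3.10.9 did the rest.

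A bound ("at least N-fold") sets the brighter level against the dim level or, if that is higher, the lowest detected level of its channel. It is open to dye bias and leaves out the scanner error. Where the dim level is the higher of these, the bound is the ratio itself. Members, roles and related lists were chosen with earlier results of these data known. All members are accounted for. Named genes of other lists are those at 2-fold and otherwise the highest or lowest ratios, with Xist, Ddx3y and Eif2s3y always named. Another gene that was to be named is not reported here.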

Additional observations from a re-analysis of the deposited data

Results flagged for a closer look

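Sdc1 had a treatment ratio of 0.31 on the wild-type array and of -0.21 on the AID transgenic array, so that the 1 treated liver of one genotype lay above its untreated liver and that of the other below. The difference was not tested, since there was 1 array per genotype. With median centring the ratios were 1.004 and 0.48, both above 0.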

How the results depend on the processing

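No paired analysis was possible because there was 1 array per genotype, and for the same reason no replicate could be left out. Medians over all markers stayed above 0, but against all genes they turned with median centring, to 0.15 against 0.35 in wild-type and 0.21 against 0.34 in AID transgenic mice, and with every channel above background in wild-type (0.00 against 0.01). The B cell median in wild-type mice went from 0.05 to -0.03 with median centring, and the median of the AID transgenic ratios moved from 0.17 to 0.70 with processed signals. Markers 2-fold higher in wild-type mice numbered 0, but 4 with an offset of 0, 7 with processed signals, 2 with median centring and 1 at 1.5-fold. In AID transgenic mice 1 was higher, but 6, 10, 3 and 4 under these settings, and the 1 lower (Zap70) became 0 with median centring and 0 with the brightest probe of each gene, whose value of -0.94 lies under 2-fold. For the difference of the ratios, 0 higher became 1 with an offset of 0, 4 with processed signals and 1 at 1.5-fold, and 0 lower became 1, 3 and 1, and also 1 with median centring and 1 with the brightest probe. Between the treated livers 1 higher became 2, 3 and 2, and 1 lower became 2 with processed signals. The cause was not tested. Requiring every channel to be well above background changed no count at 2-fold. Median centring changed the sign of 9 of 29 wild-type and 7 of 30 AID transgenic values, the largest of 0.33 in size. Processed signals changed 6 and 3, and an offset of 0 changed 2 and 2, the largest of 0.10 in size. Signal over background limits the dim markers, of which 17 in wild-type and 19 in AID transgenic mice were not well above background untreated.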

Other observations

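Probes of antigen receptor gene segments stood outside the list. Of 9 immunoglobulin segment probes, 0 were well above background in the untreated and 4 in the treated wild-type liver, and 1 and 5 in the AID transgenic livers. None was at 2-fold, with median ratios of 0.01 and -0.10 over those measured. Of 24 T cell receptor segment probes, 3 were well above background untreated on either array and 7 and 9 treated, none at 2-fold, with medians of -0.14 and -0.08. Trav2 had ratios of -0.43 ± 0.21 and -0.36 ± 0.21.

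Marco, a Kupffer cell scavenger receptor, was higher in AID transgenic than in wild-type liver both untreated (2.54) and treated (2.42).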
